A study of Mus musculus with 12 samples.

Results

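Danger signals and the genes that sense them were followed in mouse mammary tumors, as 10 genes named by their symbols among the 21960 genes listed for each tumor. Dying cells can alert the immune system by letting out molecules that are normally kept inside, and anthracyclines such as doxorubicin are known inducers of this immunogenic form of cell death. HMGB1 and annexin A1 are such molecules, as is ATP, which leaves through pannexin channels, and receptors on myeloid cells or on the tumor cells themselves detect them. Extracellular ATP is in turn broken down to adenosine, which dampens immune cells. By role, the genes were the signals Hmgb1 and Anxa1, the channel Panx1, the receptors Fpr1, P2rx7, Tlr3, Tlr4 and Ifnar1, and the enzymes Entpd1 and Nt5e.

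All tumors came from female C57BL/6 mice that carry the polyoma virus middle T oncogene (PyMT) under the MMTV promoter, which is active in mammary epithelium, so that tumors arise on their own in the mammary glands. RNA from 12 whole tumors was sequenced, 3 from each of 4 groups, to ask what doxorubicin (DOX) and the block of the checkpoint receptor PD-1 change in the tumor. IgG1 tumors received an isotype control antibody and anti-PD-1 tumors a PD-1 antibody, first at 20 mg/kg and then at 10 mg/kg, from a tumor diameter of 0.6 cm on. DOX/IgG1 tumors received 5 mg/kg doxorubicin with 10 mg/kg of the isotype control, and DOX/anti-PD-1 tumors the same with the PD-1 antibody, from a diameter of 1 cm on. The labels give a treatment of 5 weeks for every group, and the ages were not given in the sources used here. The methods of the study give 5 weeks of treatment only for the doxorubicin groups, with weekly doses. Without doxorubicin they give antibody doses at shorter intervals that end earlier. Start diameter, first antibody dose and schedule differed along with doxorubicin and cannot be told apart from it. Whether the 3 tumors of a group came from separate mice was not given either, so p-values measure the spread between these tumors.

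Expression is given as TPM (transcript abundance scaled to the whole library), with mean ± SD over tumors. The listed genes did not sum to the same total in each tumor. Their sum ran from 609418 TPM in IgG1 replicate 1 to 725506 TPM in DOX/anti-PD-1 replicate 2. Each log2 fold change compares mean log2(TPM + 1), which understates the change of genes with few TPM, and stands with its standard error (SE). A gene was called when its limma p, adjusted over all genes tested, was below 0.1 and its absolute log2 fold change above 1. Since TPM do not hold read numbers, the sequencing depth of each tumor is unknown. The labelled tissue was checked with its markers, and all 6 luminal epithelium markers were above 0 in all 12 tumors, with Epcam between 418 and 954 TPM. DOX/IgG1 replicate 1 lay at the end of the range in several measures. It had the lowest summed level of the luminal, fibroblast, pericyte and leukocyte markers and the most genes at 0, 8104 of 21960, and the values that it moved most are given with and without it. Other tumors came close, with 7730 genes at 0 in DOX/anti-PD-1 replicate 1. The median r with the other tumors was 0.94 for DOX/IgG1 replicate 1 and 0.944 for DOX/anti-PD-1 replicate 3.

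The level of the 10 genes covered a wide range. Averaged over the 12 tumors, the order was Anxa1 (527 TPM), Hmgb1 (140.0 TPM), Entpd1 (107 TPM), P2rx7 (70.0 TPM), Ifnar1 (51.6 TPM), Tlr3 (49.8 TPM), Tlr4 (39.0 TPM), Nt5e (11.5 TPM), Panx1 (5.66 TPM) and Fpr1 (0.495 TPM). Only at 2 steps of this order did the ranges over tumors not overlap. The lowest Anxa1 value, 342 TPM, lay above the highest Hmgb1 value, 172 TPM, and the lowest Tlr4 value, 21.9 TPM, above the highest Nt5e value, 16.9 TPM. At the other steps neighbors overlapped, and Ifnar1 was above Tlr3 in only 6 of 12 tumors. In 9 of the 10 genes every tumor had a value above 0, the exception being Fpr1.

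**Figure D1:**
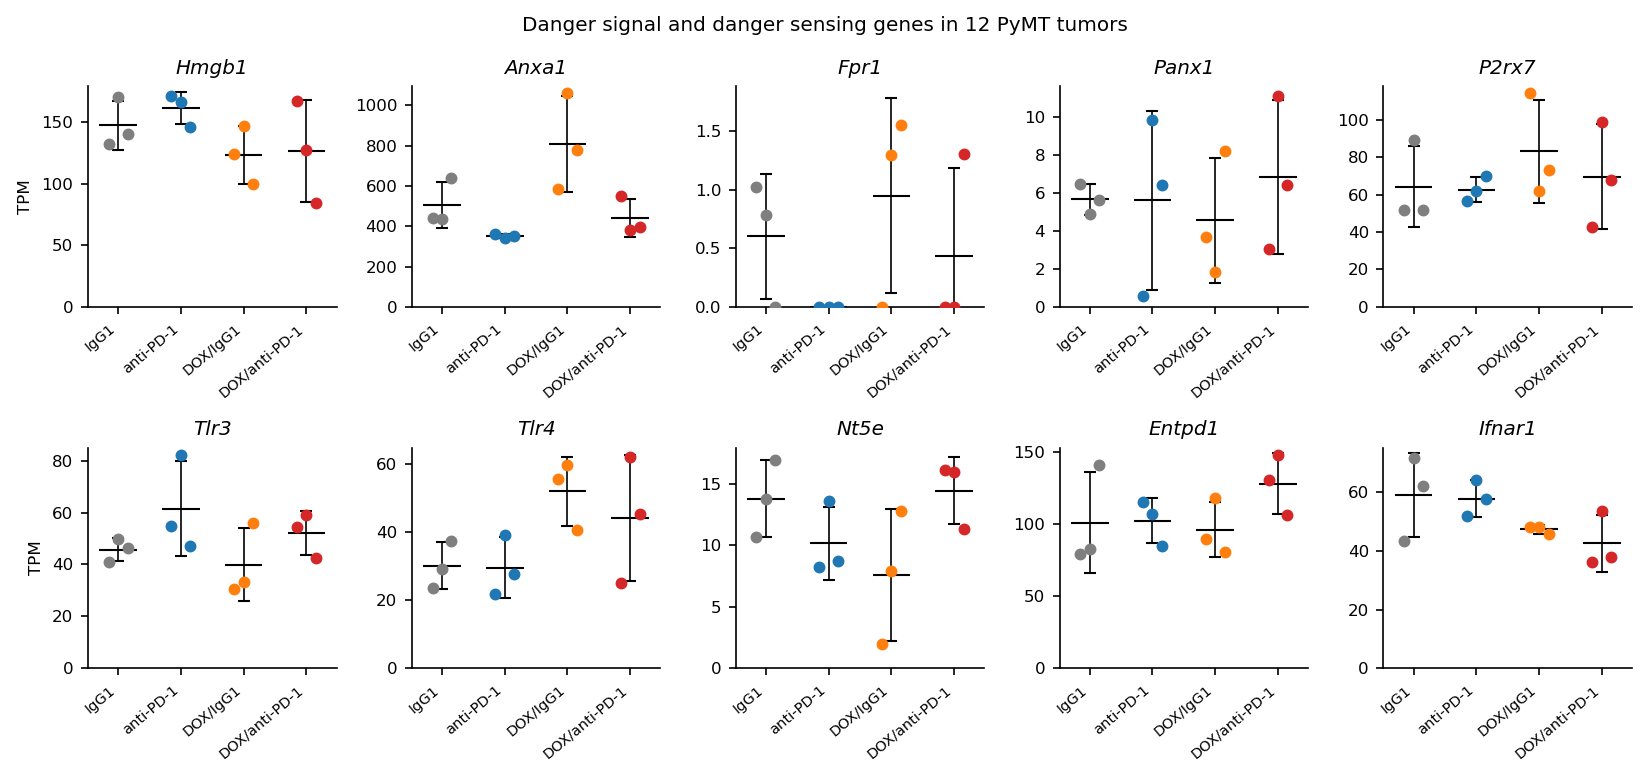
TPM of the 10 danger signal and danger sensing genes (y axis, a scale of its own for each gene) by treatment group (x axis), where each point is 1 tumor, the horizontal line the group mean and the error bar the SD of 3 tumors. Anxa1 lies between 342 and 359.7 TPM in the anti-PD-1 tumors, below every other tumor, and Fpr1 is listed at 0 in 7 of 12 tumors.

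The number of genes called was small with all tumors and large in 2 comparisons without DOX/IgG1 replicate 1. Between anti-PD-1 and IgG1 tumors, limma called 0% of 13692 genes and 0 of the 9 members tested, while 630 genes, none of them a member, had an unadjusted p below 0.05. For DOX/anti-PD-1 against DOX/IgG1 it called 0% of 13946 genes and 0 of 10 members, with 655 genes at an unadjusted p below 0.05, and Anxa1 among them. The comparison of DOX/IgG1 with IgG1 gave 5 of 13874 genes (0.036%) and 0 of 10 members, where 1073 genes, among them Tlr4, had an unadjusted p below 0.05. These 5 genes were Smr3a and Bpifa2, which rose, and Saa1, Saa2 and Hist1h2af, which fell. Without DOX/IgG1 replicate 1, 122 genes were called in this comparison, 4 between the doxorubicin groups, and 0 members in either. With 1 tumor left out at a time, Saa1 and Hist1h2af stayed called in 2 of 6 fits and Smr3a, Bpifa2 and Saa2 in 1 of 6. With the replicate number of the labels as a block, Hist1h2af alone of these genes stayed called. For DOX/anti-PD-1 against anti-PD-1, 0% of 13736 genes and 0 of 9 members were called by limma, with 1185 genes and no member at an unadjusted p below 0.05.

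With all 12 tumors in the fit, 14735 genes were tested for the effect of doxorubicin over both antibodies and for that of anti-PD-1 over both chemotherapy arms. For doxorubicin 0 of 10 members and 3 genes (0.0204%) were called by limma, against 1765 genes at an unadjusted p below 0.05, among them the members Anxa1, Tlr4 and Ifnar1. The called genes were St3gal4, Col27a1 and Gas6, all higher with doxorubicin, and all named after their values were seen. Without DOX/IgG1 replicate 1 the count was 212, with 0 members. These calls depended on the choices made. With scaling by the median of ratios 14 genes were called, 3 higher and 11 lower, and without the variance trend 0. With the replicate number of the labels as a block 1 gene was called, St3gal4. With 1 tumor left out at a time, St3gal4 stayed called in 6 of 12 fits and Gas6 and Col27a1 in 5 of 12 each. Gas6, a bridging ligand that binds the receptors Axl and Mertk and so helps phagocytes to bind dying cells, had a log2 fold change of 1.05 (SE 0.16, adjusted p = 0.0642), between 0.94 and 1.14 over all alternatives, with adjusted p between 0.0230 and 0.253. For anti-PD-1 limma called 0% of the genes and 0 of 10 members, with 691 genes at an unadjusted p below 0.05, and Anxa1 was the only member among these. For the interaction 1 gene (0.00679%), a call kept in 1 of 12 fits with a tumor left out, and 0 of 10 members were called, and of 694 genes at an unadjusted p below 0.05, Nt5e was the only member.

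The members were also compared by whether all tumors of one group lay on one side of all tumors of the other. This held for 1 of 9 members and 9.88% of all genes between anti-PD-1 and IgG1 tumors, and for 1 of 10 members and 10.2% of genes for DOX/anti-PD-1 against DOX/IgG1. It held for 1 of 10 members and 14% of genes between DOX/IgG1 and IgG1 tumors, and for 1 of 9 members and 14.9% of genes for DOX/anti-PD-1 against anti-PD-1. Over 6 against 6 tumors it held for 0 of 10 members, against 0.719% of genes for doxorubicin and 0.204% for anti-PD-1. These shares of members are close to those of all genes and say nothing particular about the members. An exact permutation test of 3 against 3 tumors cannot give a two-sided p below 0.1, and the exact test over 12 tumors, with labels exchanged within the other treatment, has 400 arrangements and cannot go below p = 0.005.

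Anxa1 encodes annexin A1, a calcium-dependent membrane-binding protein that is released from dying cells and guides phagocytes through formyl peptide receptors (ENSMUSG00000024659, chromosome 19, start 20373428, end 20390944, GRCm38). It was at 443, 436 and 638 TPM in the IgG1 tumors, at 359.7, 342 and 351 TPM in the anti-PD-1 tumors, at 587, 1059 and 779 TPM in the DOX/IgG1 tumors, and at 549.6, 380.4 and 397 TPM in the DOX/anti-PD-1 tumors. The anti-PD-1 tumors were the lowest of all 12 and close together, and the DOX/IgG1 tumors were the highest group, although their lowest tumor lay below the highest IgG1 tumor. All 3 tumors with anti-PD-1 lay below all 3 with IgG1 both without doxorubicin and with it.

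The means of Anxa1 were 506 ± 115 TPM for IgG1, 351 ± 9.09 TPM for anti-PD-1, 808 ± 238 TPM for DOX/IgG1 and 442 ± 93.3 TPM for DOX/anti-PD-1 (SD, n = 3). Over both chemotherapy arms the log2 fold change with anti-PD-1 was -0.68 (SE 0.19), the exact permutation test gave p = 0.005, the smallest it allows, and the limma p adjusted over all genes was 0.727. By unadjusted p, Anxa1 was at place 50 of the 14735 genes. The pairwise values for anti-PD-1 were -0.50 (SE 0.24, adjusted p = 0.996) against IgG1 and -0.85 (SE 0.29, adjusted p = 0.988) between the doxorubicin groups, and the interaction of -0.34 (SE 0.37, adjusted p = 0.993) did not pass the test. Against IgG1 the value was -0.33 without IgG1 replicate 3, and the interaction was -0.55 (adjusted p = 0.851) without DOX/IgG1 replicate 1 and -0.13 without DOX/IgG1 replicate 2. Without DOX/IgG1 replicate 1 the value between the doxorubicin groups was -1.06 (adjusted p = 0.437, and between 0.437 and 1.00 over all alternatives).

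For doxorubicin over both antibodies, Anxa1 had a log2 fold change of 0.49 (SE 0.19, adjusted p = 0.329, exact permutation p = 0.02), beside a median of 0.12 over all genes tested. The 6 tumors with doxorubicin reached 625 ± 258 TPM and the 6 without it 428 ± 112 TPM (SD), and these ranges overlapped. For DOX/anti-PD-1 against anti-PD-1, where the tumors did not overlap, the log2 fold change was 0.31 (SE 0.23, adjusted p = 0.716), and 0.15 without DOX/anti-PD-1 replicate 1. The fibroblast markers were all higher there too, from 0.10 (Pdgfra) to 1.03 (Dcn), as were the adipocyte markers, from 1.23 (Cfd) to 1.76 (Adipoq). The luminal markers went both ways, from -0.22 (Krt8) to 1.07 (Cldn4). In this comparison scaling by the median of ratios shifted the median of all genes by -0.11, from 0.11 to 0.00, and Anxa1 was then at 0.20. For doxorubicin over both antibodies the shift was -0.10.

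Levels in a whole tumor do not separate the cells present from the RNA in each, so that fewer cells of a type and less RNA per cell cannot be told apart. Fibroblasts and epithelial cells are among the cells known to express Anxa1. In the anti-PD-1 tumors the 6 fibroblast markers summed to 681, 598 and 492 TPM, against 866, 882 and 1376 TPM in the IgG1 tumors. They summed to 418, 1542 and 1087 TPM in the DOX/IgG1 tumors and to 786, 1076 and 1214 TPM in the DOX/anti-PD-1 tumors. Their most abundant gene was Col1a1, at 132 to 745 TPM, and none was at 0. Without doxorubicin, all 6 fibroblast markers and all 6 luminal markers were lower with anti-PD-1 than with IgG1, with 0 called. The fibroblast values were -1.50 (Col1a1), -0.42 (Pdpn), -0.37 (Col1a2), -0.10 (Pdgfra), -0.07 (Lum) and -0.03 (Dcn), beside a median of -0.03 for all genes. The luminal values ran from -0.89 (Krt19) to -0.09 (Cdh1). With doxorubicin, where the Anxa1 difference was larger, 3 of 6 fibroblast markers and 5 of 6 luminal markers were lower with anti-PD-1 (medians -0.17 and -0.04). When DOX/IgG1 replicate 1 was left out, 4 of 6 were lower in each list (medians -0.86 and -0.32), with 0 called. Over both arms 5 of 6 were lower in each list, and without that tumor 6 of 6 fibroblast markers (median -0.54) and 5 of 6 luminal markers (median -0.28). In that fit all 4 tested NK cell markers (median -0.67) and 4 of 5 T cell markers (-0.81) were also lower. All 3 tested neutrophil markers (0.30) were higher. Without doxorubicin the adipocyte markers were all lower with anti-PD-1, from -0.90 (Lep) to -0.39 (Cfd).

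The luminal markers summed to 3530.0, 2435 and 3012 TPM in the IgG1 tumors and to 2757, 2066 and 2292 TPM in the anti-PD-1 tumors. After doxorubicin they reached 1950.0, 3174 and 3734 TPM with IgG1 and 2995, 2605 and 2206 TPM with anti-PD-1. DOX/IgG1 replicate 1 was the lowest tumor in both marker lists and the lowest of its group in Anxa1. The part of these markers in the Anxa1 values was not tested.

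**Figure D2:**
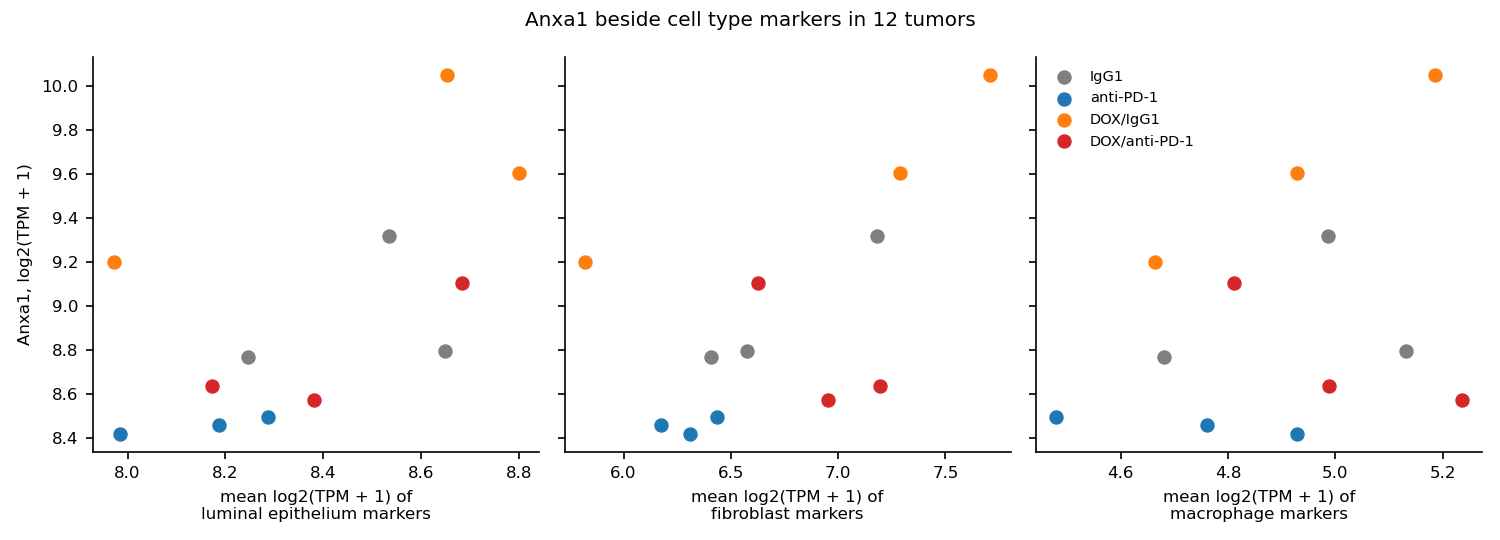
Log2(TPM + 1) of Anxa1 (y axis) against the mean log2(TPM + 1) of the luminal epithelium, fibroblast and macrophage markers (x axes), where each point is 1 of 12 tumors, colored by treatment group. Pearson's r is 0.61 with luminal, 0.60 with fibroblast and 0.30 with macrophage markers, and no adjusted p is below 0.1.

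Over the 12 tumors, which share treatment groups, each member was correlated with the mean log2(TPM + 1) of the luminal, fibroblast and macrophage markers. Of these 30 relations 0 had an adjusted permutation p below 0.1, and r ran from -0.51 to 0.61. The relations named here were picked for an unadjusted p below 0.05 after their values were seen. Anxa1 and the luminal markers gave r = 0.61 (permutation p = 0.0337, adjusted 0.440) and rho = 0.60 (permutation p = 0.0438, adjusted 0.516). Without the 2 tumors farthest from the median on the x axis r was 0.72, and with group means subtracted it was 0.67. Anxa1 and the fibroblast markers gave r = 0.60 (permutation p = 0.0384, adjusted 0.440) and rho = 0.58 (permutation p = 0.0516, adjusted 0.516), with r = 0.67 without the 2 farthest tumors and r = 0.68 with group means subtracted. Fpr1 and the fibroblast markers gave r = 0.59 (permutation p = 0.0440, adjusted 0.440) and rho = 0.63 (permutation p = 0.0317, adjusted 0.516), with r = 0.45 without the 2 farthest tumors and r = 0.51 with group means subtracted, where most Fpr1 values are 0.

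Hmgb1 encodes a nuclear protein that bends DNA and that acts, once outside the cell, on TLR4 and on the receptor Ager (ENSMUSG00000066551, chromosome 5, start 149046702, end 149184489). The annotation names 13 pseudogenes of Hmgb1, of which 0 are listed in the tables, and the gene overlaps Uspl1 on the other strand. Whether reads were shared with these pseudogenes was not tested, so its values are uncertain. It was at 132, 170.4 and 140.2 TPM in the IgG1 tumors, at 172, 167 and 147 TPM in the anti-PD-1 tumors, at 124.5, 147 and 99.97 TPM in the DOX/IgG1 tumors, and at 167, 128 and 84.7 TPM in the DOX/anti-PD-1 tumors. The lowest tumors were replicate 3 of both doxorubicin groups, and all groups overlapped. With doxorubicin the mean was 125 ± 30.2 TPM against 155 ± 17.1 TPM without it (SD, n = 6), a log2 fold change of -0.33 (SE 0.18, limma adjusted p = 0.476), and between -0.42 and -0.21 with 1 tumor left out at a time. For anti-PD-1 it was 0.07 (SE 0.18), and -0.03 without DOX/anti-PD-1 replicate 1.

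Panx1 encodes a membrane channel through which dying cells release ATP (ENSMUSG00000031934, chromosome 9, start 15002128, end 15045478). It was at 6.48, 4.86 and 5.62 TPM in the IgG1 tumors, at 0.55, 9.83 and 6.40 TPM in the anti-PD-1 tumors, at 3.67, 1.81 and 8.19 TPM in the DOX/IgG1 tumors, and at 3.02, 11.1 and 6.40 TPM in the DOX/anti-PD-1 tumors. The IgG1 tumors were close together while the other groups were spread widely around them. Panx1 had the largest SD within groups of the 10 members, 0.95 on the log2 scale. Its log2 fold changes of 0.04 (SE 0.48) for doxorubicin and 0.06 (SE 0.48) for anti-PD-1 were far below this spread, and the former turned to -0.05 with scaling by the median of ratios. With 1 tumor left out at a time, the value reversed in 4 of 12 fits for doxorubicin and in 6 of 12 for anti-PD-1.

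Among the receptors, P2rx7 is an ATP-gated ion channel that activates the inflammasome in myeloid cells (ENSMUSG00000029468, chromosome 5, start 122643911, end 122691432). Its level was 51.6, 89.4 and 52.0 TPM in the IgG1 tumors, 56.6, 61.7 and 69.9 TPM in the anti-PD-1 tumors, 114, 61.9 and 73.1 TPM in the DOX/IgG1 tumors, and 42.5, 98.9 and 67.6 TPM in the DOX/anti-PD-1 tumors. The highest and the lowest tumor both had received doxorubicin, and the anti-PD-1 tumors lay within the range of every other group except in part that of DOX/IgG1. The log2 fold change with doxorubicin was 0.22 (SE 0.23, adjusted p = 0.742), and 0.09 without DOX/IgG1 replicate 1. With anti-PD-1 it was -0.14 (SE 0.23, adjusted p = 0.999), and -0.01 without that tumor. It reversed to 0.02 without DOX/anti-PD-1 replicate 1 and was -0.25 without DOX/anti-PD-1 replicate 2.

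Tlr4 encodes the toll-like receptor that binds bacterial lipopolysaccharide and extracellular HMGB1, and it is abundant on myeloid cells (ENSMUSG00000039005, chromosome 4, start 66827584, end 66930284). It was at 23.8, 29.3 and 37.4 TPM in the IgG1 tumors, at 21.9, 39.3 and 27.8 TPM in the anti-PD-1 tumors, at 55.6, 59.8 and 40.7 TPM in the DOX/IgG1 tumors, and at 25.0, 62.2 and 45.4 TPM in the DOX/anti-PD-1 tumors. All 3 DOX/IgG1 tumors were above all 3 IgG1 tumors, whereas 1 of the 3 DOX/anti-PD-1 tumors lay within the range of the anti-PD-1 tumors. The group means were 30.2 ± 6.86, 29.6 ± 8.84, 52.0 ± 10.1 and 44.2 ± 18.6 TPM in the same order (SD, n = 3).

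For doxorubicin over both antibodies, Tlr4 had a log2 fold change of 0.64 (SE 0.23, adjusted p = 0.307, exact permutation p = 0.035), with 5 of the 6 tumors with doxorubicin above every tumor without it. It was 0.77 (SE 0.28, adjusted p = 0.568) with IgG1 and 0.51 (SE 0.36, adjusted p = 0.710) with anti-PD-1, and the interaction of -0.26 (SE 0.48) was below its error. With 1 tumor left out at a time, the value with anti-PD-1 ran from 0.22 to 0.86, and the interaction ran from -0.55 to 0.09, where it reversed without DOX/anti-PD-1 replicate 1. Leaving out 1 tumor at a time kept the overall value between 0.53 and 0.81, and scaling by the median of ratios gave 0.53. For anti-PD-1 the log2 fold change was -0.17 (SE 0.23), and -0.0007 without DOX/anti-PD-1 replicate 1. The 7 macrophage markers, led by C1qa at 77.9 to 167 TPM and all above 0 in every tumor, summed to between 220.3 and 386 TPM. With doxorubicin 6 of the 7 were higher and 0 were called, with a median log2 fold change of 0.14, close to the 0.12 of all genes. The correlation of Tlr4 with these markers was r = 0.52 (permutation p = 0.0809, adjusted 0.451) and rho = 0.50 (permutation p = 0.0980, adjusted 0.580), with r = 0.17 without the 2 farthest tumors and r = 0.53 with group means subtracted.

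Tlr3 encodes an endosomal receptor for double-stranded RNA (ENSMUSG00000031639, chromosome 8, start 45395665, end 45411080). Its level was 40.9, 49.9 and 46.4 TPM in the IgG1 tumors, 55.0, 82.2 and 47.3 TPM in the anti-PD-1 tumors, 30.5, 33.3 and 56.2 TPM in the DOX/IgG1 tumors, and 54.4, 59.1 and 42.6 TPM in the DOX/anti-PD-1 tumors. The lowest 2 tumors were DOX/IgG1 tumors and the highest an anti-PD-1 tumor, and all groups overlapped their neighbors. Tumors with anti-PD-1 reached 56.8 ± 13.8 TPM and those with IgG1 42.9 ± 9.87 TPM (SD, n = 6), a log2 fold change of 0.40 (SE 0.19, limma adjusted p = 0.999), and the exact permutation test gave p = 0.07. The log2 fold change with doxorubicin was -0.22 (SE 0.19, adjusted p = 0.680), and between -0.34 and -0.12 with 1 tumor left out at a time.

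Ifnar1 encodes a chain of the receptor for type I interferons, which are made after sensing of nucleic acids (ENSMUSG00000022967, chromosome 16, start 91485238, end 91507441). Its level was 43.4, 71.3 and 61.8 TPM in the IgG1 tumors, 51.6, 64.0 and 57.4 TPM in the anti-PD-1 tumors, 48.2, 48.1 and 45.6 TPM in the DOX/IgG1 tumors, and 36.2, 53.6 and 37.7 TPM in the DOX/anti-PD-1 tumors. The DOX/IgG1 tumors were almost alike and within the range of the IgG1 tumors, and the lowest 2 of all tumors belonged to DOX/anti-PD-1. With doxorubicin the mean was 44.9 ± 6.72 TPM and without it 58.3 ± 9.80 TPM (SD, n = 6), a log2 fold change of -0.37 (SE 0.17, limma adjusted p = 0.401). The exact permutation test gave p = 0.05, and with each tumor left out the value stayed between -0.46 and -0.31. For anti-PD-1 it was -0.09 (SE 0.17), and between -0.19 and -0.03 with each tumor left out.

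Fpr1 encodes a formyl peptide receptor that binds annexin A1 and is best known from neutrophils (ENSMUSG00000045551, chromosome 17, start 17876471, end 17883940). It was listed at 1.02, 0.78 and 0 TPM in the IgG1 tumors, at 0 in all anti-PD-1 tumors, at 0, 1.29 and 1.55 TPM in the DOX/IgG1 tumors, and at 0, 0 and 1.30 TPM in the DOX/anti-PD-1 tumors. Only 4 of 12 tumors reached 1 TPM, and Fpr1 was not tested in the comparisons of the anti-PD-1 group with IgG1 and with DOX/anti-PD-1. Over all 12 tumors its log2 fold change was 0.32 (SE 0.36) with doxorubicin and -0.53 (SE 0.36) with anti-PD-1, values that depend on the 1 added to each TPM. With 1 tumor left out at a time, the value with doxorubicin ran from 0.13 to 0.51 and that with anti-PD-1 from -0.73 to -0.43. The 7 neutrophil markers summed to between 1.48 and 14.5 TPM, with S100a8 the most abundant at 0 to 9.33 TPM and Ly6g listed at 0 in every tumor.

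Entpd1 and Nt5e encode the cell surface enzymes CD39 and CD73, which convert ATP to AMP and AMP to adenosine. Entpd1 (ENSMUSG00000048120, chromosome 19, start 40612366, end 40741602) was at 79.6, 82.9 and 141 TPM in the IgG1 tumors, at 116, 107 and 85.1 TPM in the anti-PD-1 tumors, at 90.0, 118 and 81.2 TPM in the DOX/IgG1 tumors, and at 131, 148 and 106 TPM in the DOX/anti-PD-1 tumors. The DOX/anti-PD-1 group had the highest mean, 128 ± 20.9 TPM (SD, n = 3), but its tumors overlapped those of each other group. The log2 fold changes were 0.14 (SE 0.18) with doxorubicin and 0.24 (SE 0.18) with anti-PD-1, and with scaling by the median of ratios the former was 0.03. Leaving out 1 tumor at a time gave 0.06 to 0.28 with doxorubicin and 0.17 to 0.37 with anti-PD-1.

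Nt5e (ENSMUSG00000032420, chromosome 9, start 88327197, end 88372092) was at 10.7, 13.8 and 16.9 TPM in the IgG1 tumors, at 8.19, 13.6 and 8.73 TPM in the anti-PD-1 tumors, at 2.02, 7.94 and 12.8 TPM in the DOX/IgG1 tumors, and at 16.1, 15.9 and 11.3 TPM in the DOX/anti-PD-1 tumors. The lowest value by far was that of DOX/IgG1 replicate 1, and all groups overlapped. The group means were lower with anti-PD-1 than with IgG1 in the absence of doxorubicin, 10.2 ± 2.96 against 13.8 ± 3.15 TPM, and higher in its presence, 14.4 ± 2.73 against 7.58 ± 5.39 TPM (SD, n = 3). The interaction had a log2 value of 1.50 (SE 0.67, adjusted p = 0.993), and 0.87 (SE 0.49) without DOX/IgG1 replicate 1, with adjusted p-values between 0.825 and 1.00 over all alternatives. The log2 fold change with doxorubicin over both antibodies was -0.27 (SE 0.38), and 0.09 without that tumor. That with anti-PD-1 was 0.34 (SE 0.38), and -0.03 without it.

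**Figure D3:**
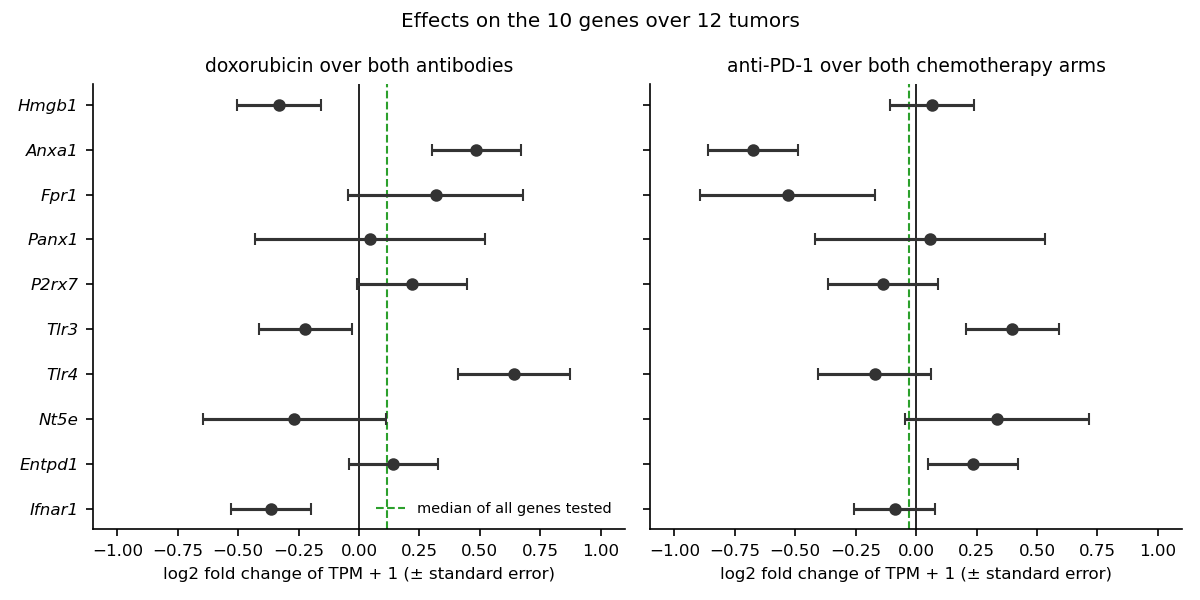
Log2 fold change of TPM + 1 with its standard error (x axis) for each of the 10 genes (y axis), for doxorubicin over both antibodies and for anti-PD-1 over both chemotherapy arms in 12 tumors, with a dashed line at the median of all genes tested (0.12 and -0.03). Tlr4 is highest with doxorubicin at 0.64 and Anxa1 lowest with anti-PD-1 at -0.68, no gene passed the test, and the small positive value of Panx1 with doxorubicin turns negative with scaling by the median of ratios.

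Set side by side, 6 members were higher and 4 lower with doxorubicin, with a median log2 fold change of 0.09 beside 0.12 for all genes, and 5 were higher and 5 lower with anti-PD-1, with a median of -0.02 beside -0.03. Without DOX/IgG1 replicate 1, 7 were higher and 3 lower with doxorubicin, and 3 higher and 7 lower with anti-PD-1 (medians 0.10 and -0.02). The pairwise comparisons share groups, so their values are not independent of one another. Between anti-PD-1 and IgG1 tumors, the 8 tested members other than Anxa1 lay between -0.41 (Nt5e) and 0.38 (Tlr3). Leaving out 1 tumor took Nt5e to -0.26 (IgG1 replicate 3) and Tlr3 to 0.16 (anti-PD-1 replicate 2), and Panx1 reversed from -0.41 to 0.44 (anti-PD-1 replicate 1). Between the doxorubicin groups the 9 others lay between -0.45 (Fpr1) and 1.09 (Nt5e). From IgG1 to DOX/IgG1, members other than Tlr4 lay between -1.02 (Nt5e) and 0.66 (Anxa1). Without DOX/IgG1 replicate 1, the values of Nt5e were -0.39 from IgG1 to DOX/IgG1 and 0.46 between the doxorubicin groups, that of Anxa1 from IgG1 to DOX/IgG1 was 0.87, and that of Fpr1 between the doxorubicin groups was -0.87. From anti-PD-1 to DOX/anti-PD-1, members other than Anxa1 lay between -0.45 (Ifnar1) and 0.51 (Panx1), where Panx1 reversed to -0.33 without anti-PD-1 replicate 1. None of these passed the test.

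Among the members themselves, 45 pairs were correlated over the 12 tumors, of which 24 had a positive and 21 a negative r, from -0.54 (Hmgb1 and Fpr1) to 0.66 (Tlr3 and Nt5e). No pair had an adjusted permutation p below 0.1. The pairs with an unadjusted p below 0.05 were again picked after the values were seen. Tlr3 and Nt5e gave r = 0.66 (permutation p = 0.0234, adjusted 0.683) and rho = 0.52 (permutation p = 0.0825, adjusted 0.676), with r = 0.50 without the 2 tumors farthest from the median of Tlr3 and r = 0.77 with group means subtracted. P2rx7 and Tlr4 gave r = 0.59 (permutation p = 0.0430, adjusted 0.683) and rho = 0.64 (permutation p = 0.0275, adjusted 0.676). Without the 2 tumors farthest from the median of P2rx7 r was 0.29, over a range that their omission narrows, and with group means subtracted it was 0.53.

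The genes whose values followed a member most closely were taken from all genes with at least 1 TPM in all 12 tumors, by Pearson's r of log2(TPM + 1), as a description with no test. An r picked as the highest among so many genes is large by selection. For Anxa1 these were Itih5 (r = 0.93) and Tns2 (r = 0.92), and for Hmgb1 Nap1l1 and Nol7 (both r = 0.91). Nt5e was followed by Txndc16 (r = 0.95) and Fzd1 (r = 0.94), and Tlr4 by Dennd4c and Abca1 (both r = 0.90). For the other members they were Hip1 and Chmp1a (Fpr1), Dcbld1 and P2ry6 (Panx1), Zfp688 and Ddias (P2rx7), Spcs3 and Capza1 (Tlr3), Ccdc84 and Ankle1 (Entpd1), and Cds1 and Ivns1abp (Ifnar1).

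Other genes of the same routes were examined as lists, described by counts and medians. With doxorubicin over both antibodies, 6 of the 13 genes of the HMGB1 and TLR4 route were higher and 7 lower, with 0 called and a median log2 fold change of -0.01 beside 0.12 for all genes. Hmgb2, a close relative of Hmgb1 that is abundant in dividing cells, was the most abundant, at 405 ± 215 TPM with doxorubicin and 522 ± 146 TPM without it (SD, n = 6). Myd88, the adaptor of most toll-like receptors, had a log2 fold change of 0.57 (SE 0.26, adjusted p = 0.389). Ager, the receptor for advanced glycation end products, reached 4.14 ± 2.81 TPM against 1.82 ± 1.17 TPM (SD, n = 6), a value of 0.81 (SE 0.38, limma adjusted p = 0.426), and 0.59 without DOX/IgG1 replicate 1. With anti-PD-1, 6 genes of this list were higher and 7 lower, with a median of -0.04 beside -0.03.

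Of the 4 genes chosen for the annexin A1 route, 2 could be tested, and both were higher with doxorubicin, with 0 called and a median of 0.14. Anxa2 was at 192 ± 27.5 TPM with doxorubicin and 175 ± 14.5 TPM without it, and Anxa5 at 127 ± 26.3 and 112 ± 14.5 TPM (SD, n = 6). The receptor Fpr3 was listed at 0 in every tumor, and Fpr2 was above 0 only in IgG1 replicate 2, at 1.20 TPM, and in DOX/IgG1 replicate 2, at 1.99 TPM. Formyl peptide receptor genes were thus near or at 0 TPM throughout, while the ligand gene Anxa1 was abundant. With anti-PD-1, 1 of the 2 tested genes was higher and 1 lower, with a median of -0.01.

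In the list for ATP release and the inflammasome, all 8 genes were tested, and 6 were higher and 2 lower with doxorubicin, with 0 called and a median of 0.30. P2rx4, an ATP-gated channel related to P2rx7, was the most abundant and varied little, from 102 to 139.6 TPM. Il1b, the inflammasome-processed cytokine interleukin 1 beta, was at 16.7 ± 4.76 TPM with doxorubicin and 10.8 ± 3.95 TPM without it (SD, n = 6), a log2 fold change of 0.61 (SE 0.27, limma adjusted p = 0.380). Nlrp3, the sensor that assembles the inflammasome, had 0.52 (SE 0.32, adjusted p = 0.552). The pairwise medians of this list differed in sign. The median was 0.60 from IgG1 to DOX/IgG1 and 0.42 from IgG1 to anti-PD-1, with 7 genes higher and 1 lower in each, comparisons that share the IgG1 tumors. It was -0.04 from anti-PD-1 to DOX/anti-PD-1 and -0.41 from DOX/IgG1 to DOX/anti-PD-1. Medians over all genes tested were 0.12, -0.03, 0.11 and -0.04 in the same order. The interaction had a median of -0.69 with 2 genes higher and 6 lower, beside -0.01 for all genes, and 0 of the 8 were called. Without DOX/IgG1 replicate 1, the median from IgG1 to DOX/IgG1 was 0.78, with all 8 genes higher. From DOX/IgG1 to DOX/anti-PD-1 it was then -0.47, and for the interaction -0.96, with 0 called.

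For the adenosine route, 6 of 8 genes were tested, and 5 were higher and 1 lower with doxorubicin, with 0 called and a median of 0.26. The nucleoside transporter gene Slc29a1 was the most abundant, at 148 ± 31.9 TPM with doxorubicin and 139.8 ± 18.97 TPM without it. Enpp1, which also breaks down extracellular ATP, reached 96.0 ± 28.1 and 76.6 ± 17.4 TPM, and Pnp, which degrades purine nucleosides, 47.8 ± 7.69 and 39.3 ± 11.3 TPM (SD, n = 6). Of the adenosine receptor genes Adora2a did not reach 1 TPM in any tumor, and Adora3 did so only in anti-PD-1 replicate 1, at 1.37 TPM. With anti-PD-1, 2 genes of this list were higher and 4 lower, with a median of -0.11.

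In the list for nucleic acid sensing and type I interferon, 14 of 15 genes were tested, and 9 were higher and 5 lower with doxorubicin, with 0 called and a median of 0.08. Ifnar2, the partner chain of Ifnar1, was the most abundant, at 230 ± 76.5 TPM with doxorubicin and 306 ± 34.6 TPM without it (SD, n = 6), a log2 fold change of -0.49 (SE 0.23, limma adjusted p = 0.421). Jak1, a kinase bound to this receptor, had 0.32 (SE 0.15, adjusted p = 0.425). The ligand gene Ifnb1 was listed at 0 in all tumors but anti-PD-1 replicate 1, where it was at 2.32 TPM. With anti-PD-1, 6 genes were higher and 8 lower, with a median of -0.03.

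The list of signals by which dying cells are eaten or spared held 10 genes, of which 5 were higher and 5 lower with doxorubicin, with 0 called and a median of -0.18. Calr encodes calreticulin, an endoplasmic reticulum chaperone that serves as an eat-me signal at the surface of dying cells. It was at 3543, 2676 and 3151 TPM in the IgG1 tumors, 1784, 2421 and 2897 TPM in the anti-PD-1 tumors, 1805, 1722 and 1657 TPM in the DOX/IgG1 tumors, and 2204, 3156 and 925 TPM in the DOX/anti-PD-1 tumors. All 3 DOX/IgG1 tumors were below all 3 IgG1 tumors, while the groups with anti-PD-1 overlapped. Its log2 fold change over both antibodies was -0.58 (SE 0.28, adjusted p = 0.426).

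Lrp1, a receptor for calreticulin on phagocytes, was at 67.8, 60.4 and 106 TPM in the IgG1 tumors, 54.8, 56.1 and 42.7 TPM in the anti-PD-1 tumors, 73.9, 195 and 142 TPM in the DOX/IgG1 tumors, and 85.8, 92.2 and 184 TPM in the DOX/anti-PD-1 tumors. The anti-PD-1 tumors were the lowest and lay apart from DOX/anti-PD-1, and DOX/IgG1 overlapped IgG1. The log2 fold change with doxorubicin was 0.94 (SE 0.26, adjusted p = 0.206), the largest among the genes named from these lists. Without DOX/IgG1 replicate 1 it was 1.13 (SE 0.22, limma adjusted p = 0.0450), which passed the limits, so that whether Lrp1 was called depended on that tumor. In that fit 212 genes were called, the highest count for doxorubicin with 1 tumor left out. No other gene of the 6 route lists was called without that tumor. Sirpa, the receptor of the do-not-eat-me signal CD47, was at 38.2 ± 12.2 TPM with doxorubicin and 58.2 ± 14.2 TPM without it (SD, n = 6), a value of -0.62 (SE 0.23, limma adjusted p = 0.318). With anti-PD-1, 4 genes of the list were higher and 6 lower, with a median of -0.17.

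**Figure D4:**
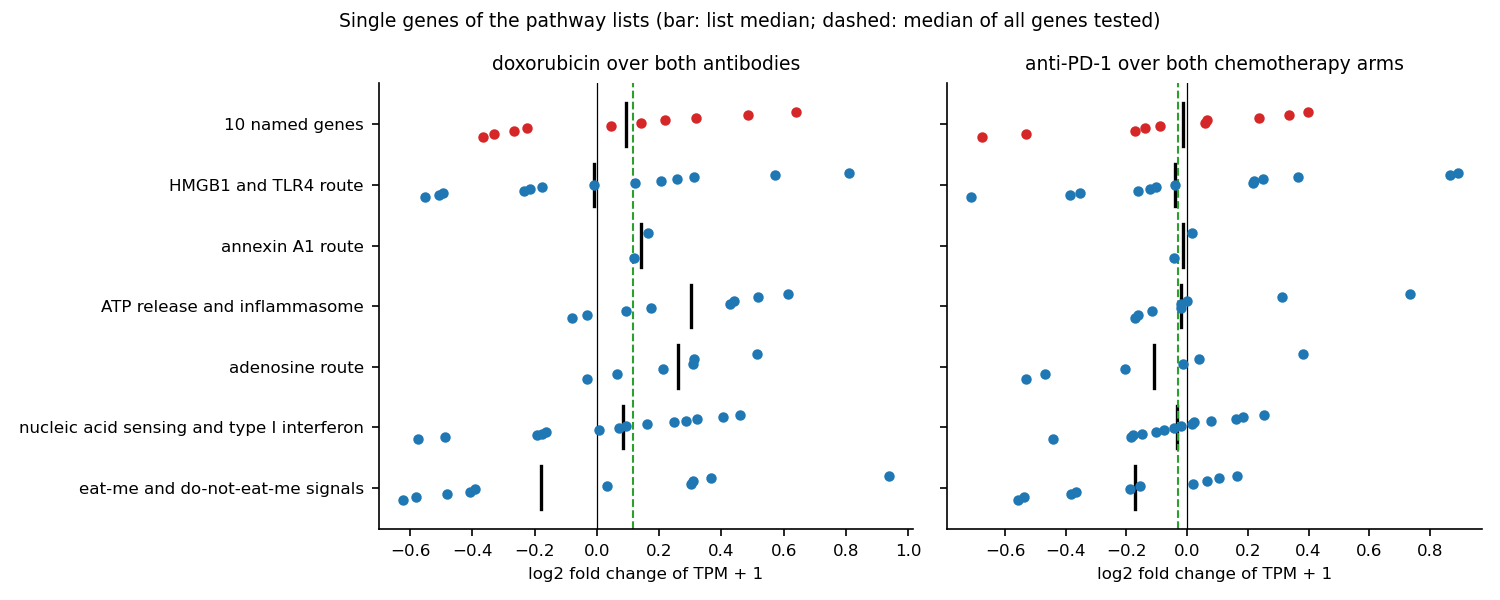
Log2 fold change of TPM + 1 (x axis) of each tested gene of the 10 members and of the 6 route lists (y axis), for doxorubicin over both antibodies and for anti-PD-1 over both chemotherapy arms, where each point is 1 gene, the black bar the list median and the dashed line the median of all genes tested. With doxorubicin the list medians run from -0.18 for eat-me and do-not-eat-me signals to 0.30 for ATP release and the inflammasome, beside 0.12 for all genes, and no point passed the test.

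Whole tumors hold many cell types, and marker lists were summed in each tumor to show how far they varied. The 5 leukocyte markers, led by Ptprc, summed to between 129 and 304.5 TPM, the 5 endothelial markers, led by Pecam1, to between 51.8 and 132 TPM, and the 5 pericyte markers, led by Acta2, to between 136 and 578 TPM. T cell markers (6 genes, led by Cd3e) ranged from 6.11 to 52.6 TPM, NK cell markers (5 genes, led by Gzma) from 1.29 to 33.6 TPM, dendritic cell markers (6 genes, led by Zbtb46) from 7.84 to 28.3 TPM, and B cell markers (4 genes, led by Cd79b) from 0 to 3.59 TPM. With doxorubicin, all 5 tested T cell markers (median 0.92), all 5 adipocyte markers (0.87), all 5 basal epithelium markers (0.24), all 4 tested NK cell markers (0.49) and all 4 tested salivary gland markers (1.49) were higher, beside a median of 0.12 for all genes and with 0 called. This did not hold in each arm. From IgG1 to DOX/IgG1, the adipocyte marker Cidec (-0.87) and the basal epithelium marker Krt5 (-0.25) were lower. The other tested markers of these lists were higher in that arm. From anti-PD-1 to DOX/anti-PD-1, 2 of 3 tested NK cell markers, 3 of 4 T cell markers and 1 of 2 salivary gland markers were higher, and the lowest NK cell sum was that of DOX/anti-PD-1 replicate 1. The markers called for doxorubicin without DOX/IgG1 replicate 1 were Cd3g, Dcn, Lum, Acta2, Amy1, Krt19, Cldn4 and Oxtr, all higher and all named after their values were seen. They were among the 212 genes called in that fit, the highest count for doxorubicin with 1 tumor left out. Krt19 and Cldn4 are of the luminal list, of which 3 markers were higher and 3 lower in that fit (median -0.03), with Epcam at -0.55. Of the pericyte and basal epithelium lists, which hold Acta2 and Oxtr, 4 markers each were higher and 1 lower. In DOX/IgG1 replicate 2, which had the highest Anxa1 value, the T cell, NK cell, fibroblast and adipocyte lists also had their highest sums.

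Markers of adipocytes, basal epithelium, skeletal muscle and salivary gland also varied between tumors, and whether these cells lay in or beside the tumor was not tested. Adipocyte markers (5 genes, led by Cfd) ranged from 83.4 to 662 TPM and basal epithelium markers (5 genes, led by Oxtr) from 67.0 to 194 TPM. Skeletal muscle markers (5 genes, led by Acta1) ranged from 0 TPM in DOX/anti-PD-1 replicate 2 to 669 TPM in DOX/anti-PD-1 replicate 1. Salivary gland markers (5 genes, led by Amy1) summed to 60.1, 98.0 and 114 TPM in the DOX/IgG1 tumors and to between 5.40 and 23.3 TPM in all others. These sums moved with the groups in the salivary list, where Smr3a and Bpifa2 were called between DOX/IgG1 and IgG1. The part of any of these lists in the values of the 10 members was not tested.

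**Figure D5:**
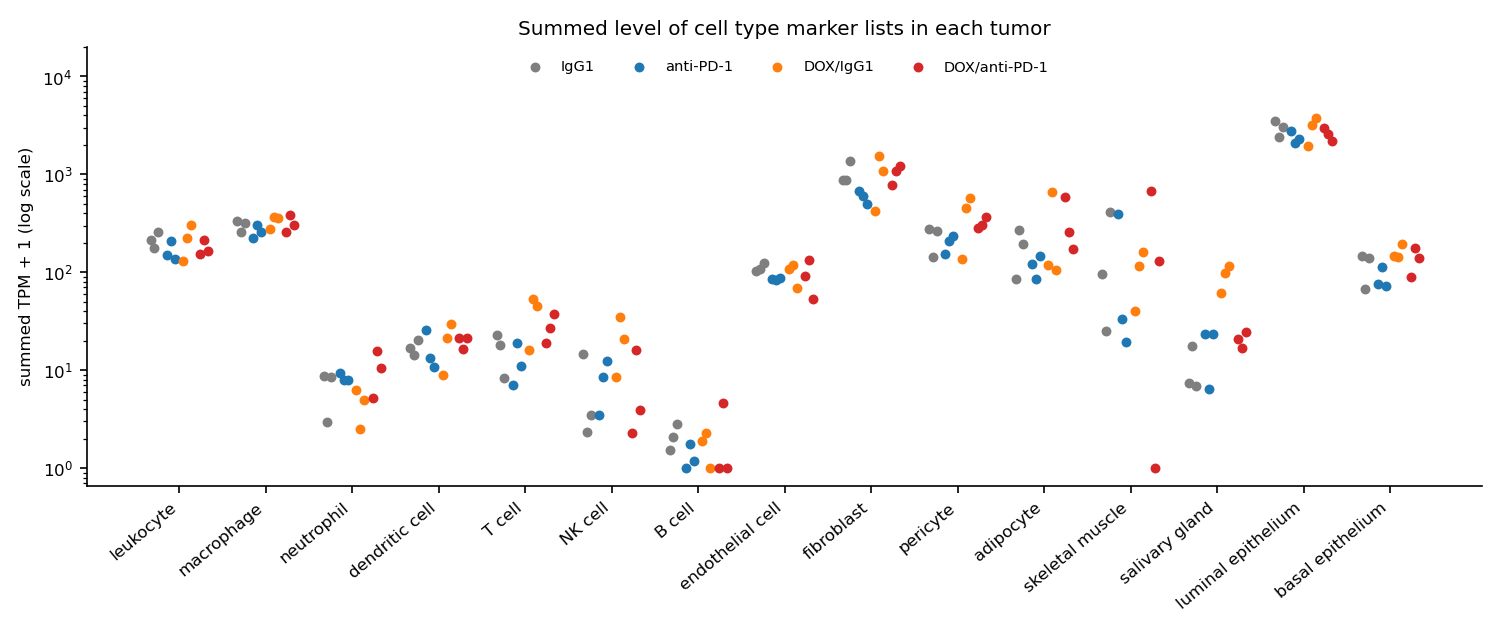
Summed TPM + 1 of each cell type marker list (y axis, log scale) by list (x axis), where each point is 1 of 12 tumors, colored by treatment group. The salivary gland sums are highest in the 3 DOX/IgG1 tumors, at 60.1 to 114 TPM, and the skeletal muscle sums run from 0 to 669 TPM within the DOX/anti-PD-1 group.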

How the data were processed

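The authors sequenced total RNA libraries from a single end, used skewer for trimming, STAR for alignment to mm10 and RSEM for gene levels, and deposited log2(TPM + 1) values with decimal commas for 21960 genes in each of 12 tumors. Depth cannot be had from TPM. Groups came from the sample labels. Genes with at least 1 TPM in at least 3 tumors of a fit were tested with limma 3.58.1 (R 4.3.3, moderated with a trend of variance on level, two-sided, Benjamini-Hochberg over all genes tested), in place of the count model of the study. Pairwise fits held 6 tumors, and the effects of doxorubicin, anti-PD-1 and their interaction all 12. Permutation tests were two-sided, exact for differences and with 100000 resamples for correlations. The limma, permutation, correlation and most similar gene steps were tested on simulated data. Coordinates are those of GENCODE vM21 (GRCm38). The members and lists were chosen with earlier results of these data known. All 10 members are named. For pairwise comparisons and the interaction, tests are given for members with an unadjusted p below 0.05 or groups that do not overlap. Of each route list, the most abundant gene and the 2 with the smallest p for doxorubicin are named, and of marker lists the most abundant gene and those at 0 throughout. Others, such as Tlr4 from anti-PD-1 to DOX/anti-PD-1, the interactions of Anxa1 and Tlr4, Fpr2, Ifnb1, Adora2a, Adora3, single markers and the called genes, were named after their values were seen. Alternatives were a pseudocount of 0.1, no filter, scaling by the median of ratios, no trend, no fold limit, a replicate block, all 12 tumors in one fit, and each tumor left out in turn.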

Additional observations from a re-analysis of the deposited data

Results flagged for a closer look

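By the limits used, 1 gene was called in the interaction test of doxorubicin and anti-PD-1. Bpifa2, a secreted salivary protein gene of the salivary gland list, had an interaction of -4.73 on the log2 scale (SE 0.66, limma adjusted p = 0.0909). It was listed at 14.4, 21.3 and 53.7 TPM in the DOX/IgG1 tumors and at 0 in all tumors of the IgG1, anti-PD-1 and DOX/anti-PD-1 groups. With 3 groups at 0, the interaction is the difference between DOX/IgG1 and IgG1 (4.73) with its sign turned, and it shows no more than that the gene was above 0 in 1 group. The gene stayed called with no filter and with no variance trend, and was not called with a pseudocount of 0.1, with scaling by the median of ratios or with the replicate block. With 1 tumor left out at a time it stayed called in 1 of 12 fits, that without DOX/IgG1 replicate 1. Over all alternatives its adjusted p ran from 0.0240 to 0.991. Each of the 10 danger signal and danger sensing genes missed the threshold in this test.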

How the results depend on the processing

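The 10 members were called in 0 cases under every alternative run. Of 405 alternative values for 25 member changes, 389 kept their direction and 16 reversed, and the smallest adjusted p was 0.183. Reversed values came from 6 of the 25 changes. Scaling by the median of ratios gave Panx1 -0.0461 with doxorubicin, and a pseudocount of 0.1 gave it -0.0381 with anti-PD-1. With 1 tumor left out at a time, Panx1 ran from -0.38 to 0.28 with doxorubicin and from -0.17 to 0.49 with anti-PD-1, Nt5e from -0.41 to 0.0943 and from -0.0264 to 0.49, Hmgb1 from -0.0277 to 0.19 with anti-PD-1 and P2rx7 from -0.25 to 0.0158 with anti-PD-1. Changes outside the 25 reversed as well. With 1 tumor left out, Ifnar1, P2rx7 and Entpd1 between anti-PD-1 and IgG1 each reversed in 3 of 6 fits. The interaction of Tlr3 reversed in 7 of 12 fits, while other changes outside the 25 kept their direction. The cause was not tested.

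Counts of called genes moved more. Without the mean-variance trend they were 1 for anti-PD-1 vs IgG1, 3 for DOX/anti-PD-1 vs DOX/IgG1, 13 for DOX/IgG1 vs IgG1, 3 for DOX/anti-PD-1 vs anti-PD-1, 0 for doxorubicin over both antibodies and 3 for the interaction. Scaling by the median of ratios gave 3 genes between the doxorubicin groups (1 higher and 2 lower), 14 for doxorubicin over both antibodies (3 higher and 11 lower, against 3 and 0) and 0 for the interaction. All 12 tumors in one fit gave 2 between the doxorubicin groups. For the interaction, a pseudocount of 0.1 gave 0 and no filter gave 3. Leaving out 1 tumor gave 0 to 4 genes for anti-PD-1 vs IgG1, for DOX/anti-PD-1 vs DOX/IgG1 and for DOX/anti-PD-1 vs anti-PD-1, 0 to 122 for DOX/IgG1 vs IgG1, 0 to 212 for doxorubicin over both antibodies, 0 for anti-PD-1 over both arms and 0 to 1 for the interaction, where the count was 0 in 10 of 12 fits. The counts of 122 and 212 came without DOX/IgG1 replicate 1, and 27 genes were called for doxorubicin without DOX/anti-PD-1 replicate 2. For DOX/IgG1 vs IgG1 the count was 0 without any of the IgG1 tumors or without DOX/IgG1 replicate 3.

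Whether the replicate numbers of the labels pair the tumors is not known. Deviations of same-numbered tumors correlated between -0.096 and 0.134, above 0.1 in 4 of 18 pairs. Their median was 0.017, against -0.004 for tumors with different numbers. Values this weak cannot decide whether same-numbered tumors were handled together. With the number as a replicate block, 2 genes were called for DOX/IgG1 vs IgG1, 1 for doxorubicin over both antibodies and 0 for the interaction, and no other count changed. Of the genes called in the main fits, only Hist1h2af and St3gal4 stayed called with this block. With 3 tumors per group, unknown depth and treatment schedules tied to doxorubicin, values near 0 TPM such as those of Fpr1 are uncertain, and those of Panx1 and Nt5e varied most within groups.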
